A study of Mus musculus with 10 samples.

Results

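The genes described are the organic anion, cation and drug transporters of the mouse, taken as every identifier of the deposited table whose symbol starts with Slc22a, Slc47a or Slco. They were 41 of 22053 genes, with 25 in the Slc22a family, 2 in Slc47a and 14 in Slco. RNA-seq was run on kidney glomeruli, the capillary tufts in which blood is filtered, in 5 libraries of mice with the p.G799R missense change in Col4a3 (G799R) and 5 libraries of mice with wild-type Col4a3 (WT). The labels give the genotype and the tissue and state neither the zygosity, strain, sex or age of the mice nor any treatment, although the series title names tauroursodeoxycholic acid. Whether each library stands for its own mouse is not labelled, so p-values reflect library-to-library spread, part of which may be technical.

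Proteins of these families move charged molecules across cell membranes. In the proximal tubule, the nephron segment that follows the glomerulus, organic anion and cation transporters of the blood side take up drugs, toxins and metabolites, and carriers of the urine side pass them into the lumen or reclaim urate and carnitine from it. Other members serve endothelium, liver, brain or testis, or are found in many tissues. The filtering tuft itself is made of podocytes, endothelial and mesangial cells, none of which is known for this secretion.

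Transporters of the proximal tubule were much lower in G799R libraries, except relative to other proximal tubule genes, whereas members of endothelium or of wide expression differed in both directions, with a median close to that of all genes. FPKM, the unit of the table, is the number of fragments scaled for transcript length and library total. Differences were tested with limma on log2(FPKM + 1), with Benjamini-Hochberg adjustment over all 13117 genes of at least 0.5 FPKM on average and a threshold of 0.05. Of the 41 members, 28 reached that level and were tested, and 19 of them fell and 4 rose. Among all tested genes 59.8% were called, with 19.3% lower and 40.5% higher. The median log2 difference, G799R minus WT, was −1.21 over the tested members and 0.17 over all tested genes. The 5 G799R values did not overlap the 5 WT values for 17 lower and 2 higher members of 28. Over all tested genes 41.8% were without overlap, 15.7% with G799R lower and 26.1% with G799R higher.

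The members were grouped by the place where they are known to act. Of 21 members assigned to the proximal tubule 19 were tested, and 17 of these fell, 0 rose and 2 were not called, with a median log2 difference of −2.44. Among those that fell, Slc22a19, Slc22a26 and Slc22a29 reached 0.5 FPKM on average only through the WT libraries. Of 10 members assigned to endothelium or to wide expression 8 were tested, and 4 rose, 2 fell and 2 were not called. These calls were near the shares of all tested genes, 40.5% higher and 19.3% lower. The median was 0.19 beside 0.17 for all tested genes. Slc22a3, which rose, reached 0.5 FPKM on average only through the G799R libraries, and Slco4a1, which fell, only through the WT libraries. Only 1 of the 10 remaining members, which are known from testis, liver, brain or other places, was tested, and it was not called.

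The tissue label was compared with marker genes. Each of 14 podocyte markers rose in G799R libraries, as did 11 of 14 endothelial and 7 of 10 mesangial and smooth muscle markers, with medians of 0.66, 0.66 and 0.83 on the log2 scale. All 26 proximal tubule markers, none of them a transporter of these families, fell, with a median of −2.87, and of the 16 distal nephron markers 15 fell (median −2.11). The summed FPKM of the proximal tubule markers was 1258 to 3040 in G799R libraries and 9241 to 17012 in WT libraries, and none of these markers was listed at 0 throughout. In such bulk samples fewer tubule cells and less RNA per tubule cell cannot be told apart, and the part of the marker difference in the results below was not tested, except where levels relative to the markers are given. Absolute depth is unknown, since the table gives no counts. The steps of low values put relative depth at 0.859 to 1.04 times that of WT library 1 in G799R libraries and at up to 1.19 times in the other WT libraries, as estimates.

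The promoters of 4 members that fell and of 1 that rose are shown. They were picked with the values of these genes known, because the results below turn on them, and do not stand for their groups. The windows are the 250 bases before the RefSeq gene start (build GRCm38.p6), read 5′ to 3′ on the strand of the gene. Capitals mark CAAAGT, an arm of the binding motif of HNF4A, a transcription factor of proximal tubule genes, searched on both strands (a match on the other strand appears as ACTTTG). The windows of Slc22a8, Slco1a6 and Slco2a1 lie within the longer spans that GENCODE M21 gives these genes.
Slc22a6, chr19:8617746-8617995, plus strand: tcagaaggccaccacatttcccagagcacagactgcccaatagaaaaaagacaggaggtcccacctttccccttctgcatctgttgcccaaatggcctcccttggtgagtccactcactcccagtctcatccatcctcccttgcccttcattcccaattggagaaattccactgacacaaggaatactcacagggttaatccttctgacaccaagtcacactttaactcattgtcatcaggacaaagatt
Slc22a8, chr19:8592932-8593181, plus strand: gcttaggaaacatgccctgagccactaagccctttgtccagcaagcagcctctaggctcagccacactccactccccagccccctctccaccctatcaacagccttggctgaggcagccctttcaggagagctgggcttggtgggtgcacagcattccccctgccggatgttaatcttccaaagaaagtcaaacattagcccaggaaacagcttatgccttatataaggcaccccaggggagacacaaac
Slc22a12, chr19:6543071-6543320, minus strand: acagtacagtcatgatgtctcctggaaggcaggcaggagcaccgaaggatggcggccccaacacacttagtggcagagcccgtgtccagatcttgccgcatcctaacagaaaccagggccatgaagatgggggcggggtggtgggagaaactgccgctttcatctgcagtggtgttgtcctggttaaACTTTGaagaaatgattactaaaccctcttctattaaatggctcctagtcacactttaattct
Slco1a6, chr6:142186150-142186399, minus strand: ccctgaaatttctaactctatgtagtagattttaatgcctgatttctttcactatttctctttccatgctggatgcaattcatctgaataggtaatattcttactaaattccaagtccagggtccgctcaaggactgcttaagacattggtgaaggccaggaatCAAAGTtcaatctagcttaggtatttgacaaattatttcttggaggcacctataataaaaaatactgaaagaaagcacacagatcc
Slco2a1, chr9:103008237-103008486, plus strand: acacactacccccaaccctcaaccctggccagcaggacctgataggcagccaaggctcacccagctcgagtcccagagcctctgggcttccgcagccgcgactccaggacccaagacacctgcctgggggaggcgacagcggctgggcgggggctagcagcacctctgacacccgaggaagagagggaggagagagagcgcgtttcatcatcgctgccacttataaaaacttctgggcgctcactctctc

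CAAAGT or its reverse complement began at −63 in Slc22a12 and at −86 in Slco1a6, counted back from the gene start, and was not in the windows of Slc22a6, Slc22a8 and Slco2a1. RefSeq had a promoter entry for 35 of the 41 members, with 40 windows in all. The letters were found in 6 of 19 windows of proximal tubule members (31.6%), 1 of 12 windows of endothelial or wide members (8.33%) and 12.6% of all 32851 windows. The proximal tubule genes with the letters include Slc22a19, Slc22a28 and Slc22a30. These are related genes of the same cluster on chromosome 19, so their windows need not be independent. Among members described below, Slc22a18, Slc22a2 and Slc22a5 also fell without these letters in their windows, and Slc22a3 rose and had them. A match of letters is a description and not a binding site.

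Slc22a12 encodes URAT1, which reclaims urate from the tubular fluid, and was the most abundant proximal tubule member. It had 25.3, 38.4, 44.0, 25.8 and 19.4 FPKM in G799R libraries 1 to 5, against 140, 173, 123, 199 and 140 FPKM in WT libraries 1 to 5. Every G799R library was below every WT library. The log2 difference was −2.34 ± 0.21 (SE), and the limma adjusted p was 5.83e-06. Of the 50-base words in its longest coding transcript, 29.1% also occur in a transcript of Nrxn2, so part of its reads cannot be assigned with certainty.

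The basolateral carriers OAT1 and OAT3, encoded by the neighbouring genes Slc22a6 and Slc22a8 on chromosome 19, load organic anions such as p-aminohippurate and many drugs into the cell. In GENCODE M21 (GRCm38) Slc22a6 spans 8618039 to 8628299 and Slc22a8 spans 8591254 to 8611835, both on the plus strand. Slc22a6 stood at 20.5, 22.8, 26.1, 14.5 and 10.58 FPKM in G799R libraries 1 to 5, against 83.7, 136, 84.98, 148 and 84.2 FPKM in the WT libraries. Slc22a8 stood at 18.4, 16.9, 12.3, 9.81 and 8.65 FPKM in G799R libraries 1 to 5, against 68.0, 114, 91.4, 96.7 and 91.1 FPKM in the WT libraries. The genotypes did not overlap for either gene. Slc22a6 was 5.69-fold lower (log2 difference −2.46 ± 0.25 SE, limma adjusted p = 1.27e-05) and Slc22a8 was 6.98-fold lower (−2.75 ± 0.20, limma adjusted p = 2.19e-06).

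Organic cations enter through carriers such as OCT2, the product of Slc22a2, and leave into the urine through MATE1, the product of Slc47a1. Slc47a1 had 14.2, 16.6, 16.5, 12.1 and 8.58 FPKM in G799R libraries 1 to 5, against 60.7, 101, 77.0, 121 and 87.2 FPKM in the WT libraries. The genotypes were separated completely, and the gene was 6.60-fold lower, with a limma adjusted p of 2.71e-06. Slc22a2 averaged 7.20 ± 2.29 FPKM in G799R and 43.2 ± 11.02 FPKM in WT (SD, n = 5 each), which is 6.0-fold lower, also without overlap.

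Slc22a18, an orphan member in an imprinted region of chromosome 7, behaved like these carriers. Its values were 15.4, 16.1, 17.2, 12.1 and 7.22 FPKM in G799R libraries 1 to 5, against 72.3, 119, 92.5, 122 and 111 FPKM in the WT libraries. Again no library of one genotype reached the range of the other. The gene was 7.60-fold lower, with a log2 difference of −2.87 ± 0.22 (SE) and a limma adjusted p of 2.57e-06.

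**Figure D1:**
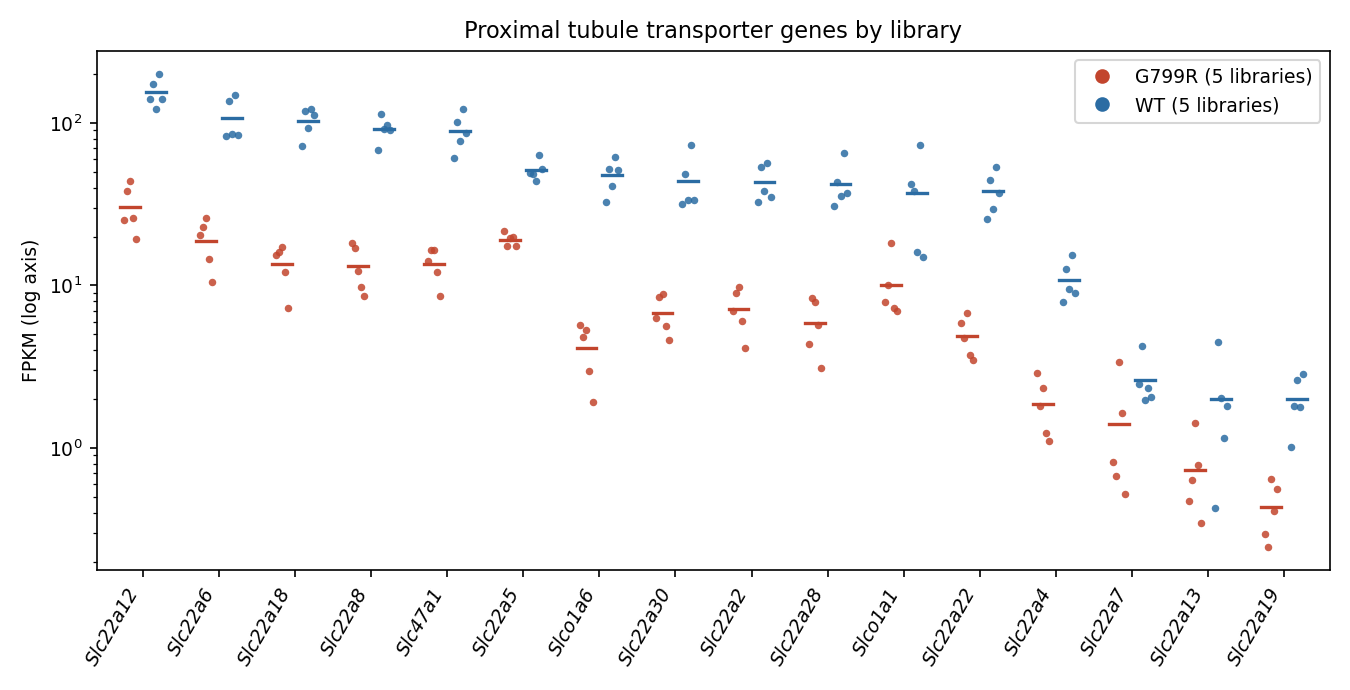
FPKM (log axis) of 16 proximal tubule members with a mean of at least 1 FPKM, with G799R libraries (red) left of WT libraries (blue), 1 point per library and bars at the group means. The groups are separate for each gene except Slco1a1, Slc22a7 and Slc22a13. Among the abundant, separate genes the group means differ least for Slc22a5, at 2.68-fold.

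Carnitine and zwitterion carriers of the OCTN group differed in size of change. Slc22a5 encodes OCTN2, the carnitine transporter, which is found in many tissues as well as in the proximal tubule. It had 21.5, 17.4, 19.6, 19.7 and 17.6 FPKM in G799R libraries 1 to 5, against 48.9, 48.6, 44.2, 63.3 and 52.2 FPKM in the WT libraries. All G799R values lay below all WT values, and the gene was 2.68-fold lower (log2 difference −1.37 ± 0.10 SE, limma adjusted p = 2.10e-06). Slc22a4, which encodes the ergothioneine transporter OCTN1, averaged 1.88 ± 0.75 FPKM in G799R and 10.9 ± 3.05 FPKM in WT (SD, n = 5 each) and was 5.79-fold lower. Slc22a21, the gene of OCTN3, lies between them on chromosome 11 (53949965 to 53980332, with Slc22a5 at 53864542 to 53891660 and Slc22a4 at 53983123 to 54028090). It had 2.24 ± 0.55 FPKM in G799R and 1.87 ± 0.55 FPKM in WT, with overlapping groups and a limma adjusted p of 0.32. Slc22a5 shares 26.9% of its 50-base words with Slc22a21, and reads from these stretches cannot be told apart between them.

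Slco1a6 and Slco1a1 encode organic anion transporting polypeptides of the tubule, which carry steroid conjugates and other large anions. Slco1a6 showed the largest called difference of the tested members on the log2 scale, at −3.28 ± 0.24 (SE, limma adjusted p = 2.19e-06). Its values were 5.68, 4.79, 5.31, 2.99 and 1.91 FPKM in G799R libraries 1 to 5, against 32.6, 52.2, 41.1, 61.4 and 51.1 FPKM in the WT libraries, an 11.5-fold lower mean with no overlap. Slco1a1, which is known to be induced by androgen in the mouse kidney, scattered more widely. Its G799R libraries had 7.95, 10.05, 18.3, 7.26 and 6.95 FPKM, against 42.2, 38.3, 16.2, 73.5 and 14.9 FPKM in the WT libraries. G799R library 3 was above WT libraries 3 and 5, so the groups overlapped, and the log2 difference of −1.62 ± 0.41 (SE) had a limma adjusted p of 0.00548.

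The remaining abundant members of the proximal tubule belong to branches that are best known in rodents. Slc22a22, which encodes a prostaglandin-specific organic anion transporter, averaged 4.92 ± 1.40 FPKM in G799R and 38.1 ± 11.3 FPKM in WT (SD, n = 5 each), 7.75-fold lower. Slc22a30 averaged 6.80 ± 1.84 FPKM in G799R and 44.0 ± 17.4 FPKM in WT, 6.48-fold lower. Slc22a28 averaged 5.89 ± 2.26 FPKM in G799R and 42.4 ± 13.5 FPKM in WT, 7.20-fold lower. Slc22a28 shares 53.3% of its 50-base words with Slc22a30, which lies in the same cluster on chromosome 19, so that their single values are uncertain. All 3 fell without overlap between the genotypes.

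Low members of the same chromosome 19 cluster fell too. Slc22a19, the gene of OAT5, was at 0.43 ± 0.17 FPKM in G799R and 2.01 ± 0.74 FPKM in WT (SD, n = 5 each; log2 difference −1.04 ± 0.17 SE, limma adjusted p = 4.1e-04). Slc22a26 ranged from 0.035 to 0.545 FPKM in G799R and from 0.50 to 2.45 FPKM in WT, with G799R library 5 above the lowest WT library (limma adjusted p = 0.0034). Slc22a29 ranged from 0.026 to 0.18 FPKM in G799R and from 0.512 to 2.26 FPKM in WT (limma adjusted p = 5.3e-04), and shares 24.4% of its 50-base words with Slc22a27. These members reached the filter of 0.5 FPKM only through the WT libraries, with G799R means of 0.43, 0.18 and 0.078 FPKM. Their being tested thus depended on the higher WT values, and they are no separate support for the fall. At such levels the pseudocount of 1 makes the log2 differences much smaller than the ratios of the means.

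Slc22a7 and Slc22a13 were the tested proximal tubule members without a call. Slc22a7, the gene of OAT2, had 0.815, 0.672, 3.36, 1.65 and 0.52 FPKM in G799R libraries 1 to 5, against 2.49, 4.26, 1.99, 2.33 and 2.05 FPKM in the WT libraries. G799R library 3 lay within the WT range, and the log2 difference of −0.68 ± 0.28 (SE) had a limma adjusted p of 0.0516, which became 0.0036 (log2 difference −0.92) without that library. The gene was also called lower with a pseudocount of 0.1 (−1.11, adjusted p = 0.0424) or 0.5 (−0.86, adjusted p = 0.0466), with median-of-ratios scaling (−0.78, adjusted p = 0.0409) and with glomerular markers set equal (−1.11, adjusted p = 0.0023). Slc22a13, an urate and nicotinate transporter gene, had 0.474, 0.633, 1.42, 0.785 and 0.343 FPKM in G799R libraries 1 to 5, against 0.428, 4.51, 2.04, 1.15 and 1.82 FPKM in the WT libraries. Its log2 difference of −0.67 ± 0.30 (SE, limma adjusted p = 0.0754) was called without G799R library 3 (−0.80, adjusted p = 0.0496) or without WT library 1 (−0.90, adjusted p = 0.0117). The pseudogene Slc22a13b-ps shares 36.0% of the 50-base words of Slc22a13, which makes its value uncertain.

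Slco2a1, the prostaglandin transporter gene of endothelium, was the most abundant member over all libraries. It had 135, 100, 115, 107 and 136 FPKM in G799R libraries 1 to 5, against 86.7, 74.7, 82.6, 51.2 and 68.1 FPKM in the WT libraries. Each G799R value was above each WT value. The gene rose 1.63-fold, with a log2 difference of 0.71 ± 0.14 (SE) and a limma adjusted p of 0.00131. The endothelial markers rose in the same libraries, and with podocyte, endothelial and mesangial markers set equal in every library the difference was 0.04 (adjusted p = 0.80).

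Slco3a1 and Slc22a17, which are expressed in many tissues, showed small rises. Slco3a1 had 41.2, 51.0, 46.4, 49.1 and 57.2 FPKM in G799R libraries 1 to 5, against 41.1, 41.6, 38.5, 39.8 and 33.4 FPKM in the WT libraries, with overlap from G799R library 1. Slc22a17, which encodes a receptor of lipocalin 2, had 10.4, 11.3, 11.3, 10.3 and 12.1 FPKM in the G799R libraries, against 8.72, 8.23, 10.1, 9.20 and 8.45 FPKM in the WT libraries, without overlap. The log2 differences of 0.32 (Slco3a1, limma adjusted p = 0.0102) and 0.28 (Slc22a17, limma adjusted p = 0.0067) lost their call with median-of-ratios scaling, at 0.15 and 0.12. With the glomerular markers set equal they turned to −0.35 and −0.34, both called lower. That scaling moved most genes down, with 8291 of 13117 called lower and a median of −0.42, so both genes lay slightly above the median.

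Slc22a23, an orphan member, fell although it is not assigned to the proximal tubule. It had 8.03, 7.53, 7.46, 8.09 and 5.69 FPKM in G799R libraries 1 to 5, against 10.7, 12.5, 14.0, 16.4 and 17.5 FPKM in the WT libraries. The groups did not overlap, and the 1.93-fold lower mean corresponded to a log2 difference of −0.85 ± 0.13 (SE, limma adjusted p = 2.7e-04). Relative to the proximal tubule markers described below the difference turned to 1.71. On that scale 94.8% of all tested genes were called higher and their median was 2.61, so Slc22a23 stayed below the median. Slco4a1, a carrier of thyroid hormone, also fell, and is a low member, at 0.472 ± 0.092 FPKM in G799R against 1.42 ± 0.42 FPKM in WT (SD, n = 5 each; limma adjusted p = 6.6e-04). It reached the filter of 0.5 FPKM only through the WT libraries.

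Slc22a3, the gene of the widely expressed cation transporter OCT3, went the other way from its neighbour Slc22a2. It lies on chromosome 17 at 12418960 to 12507704, beside Slc22a2 (12584132 to 12628488). It had 0.727, 0.522, 1.38, 0.955 and 0.819 FPKM in G799R libraries 1 to 5, against 0.751, 0.015, 0.053, 0.016 and 0.278 FPKM in the WT libraries. WT library 1 lay within the G799R range while the other 4 were below it. The gene reached the filter of 0.5 FPKM only through the G799R libraries (mean 0.880, against 0.223 in WT). Its place among the tested members thus depended on its being higher there. The log2 difference was 0.64 ± 0.18 (SE, limma adjusted p = 0.0090), and without G799R libraries 3 and 4 it was 0.50 and no longer called (adjusted p = 0.0585). The 50-base words of Slc22a3 were shared with 0 other genes.

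Slc22a15 and Slco2b1 were not called. Slc22a15 averaged 1.79 ± 0.28 FPKM in G799R and 1.63 ± 0.47 FPKM in WT (SD, n = 5 each; limma adjusted p = 0.54). Slco2b1, which encodes a widely expressed carrier of steroid sulfates, ranged from 0.42 to 1.10 FPKM in G799R and from 0.686 to 3.96 FPKM in WT (limma adjusted p = 0.23), the highest WT value being that of library 1. The summed FPKM of 10 macrophage and myeloid markers was 200 to 409 in G799R libraries and 76.4 to 267 in WT libraries, and was highest among WT libraries in library 1. Its part in the Slco2b1 value was not tested.

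**Figure D2:**
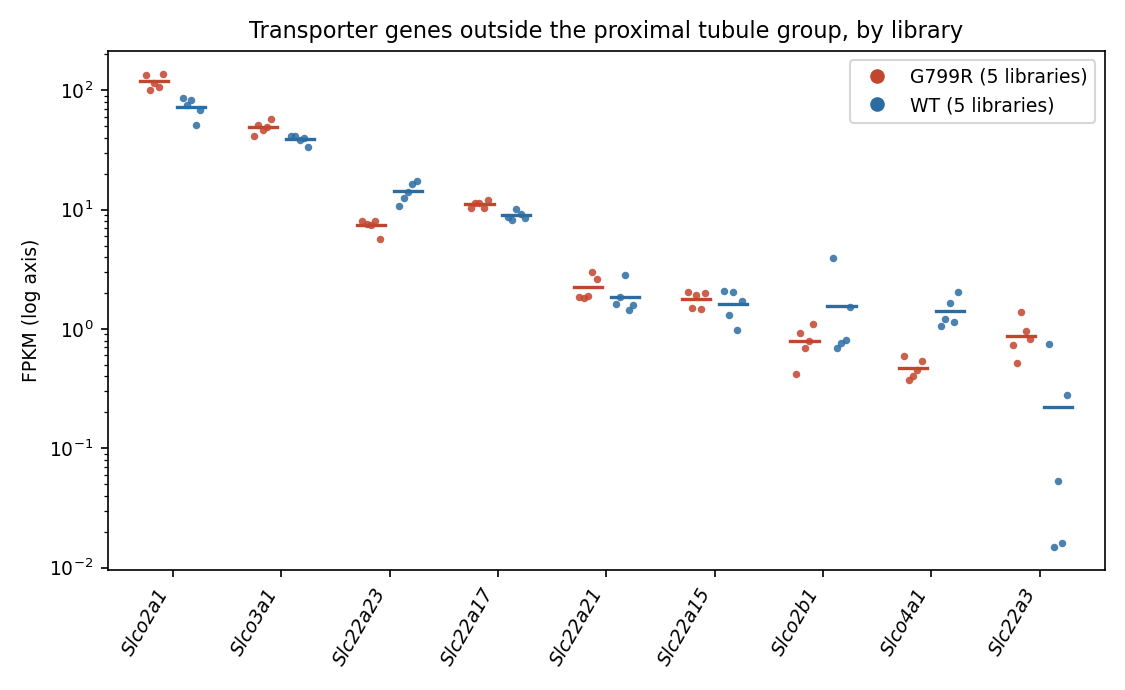
FPKM (log axis) of the 9 tested members outside the proximal tubule group, with G799R libraries (red) left of WT libraries (blue), 1 point per library and bars at the group means. Slco2a1, Slco3a1, Slc22a17 and Slc22a3 were called higher in G799R as deposited and Slc22a23 and Slco4a1 lower. Slco3a1 and Slc22a17 turn to lower with glomerular markers set equal, where the median of all tested genes was −0.42. Slc22a23 and Slco4a1 turn to higher with proximal tubule markers set equal, where 94.8% of all tested genes were higher and the median was 2.61.

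The 13 untested members were at most at 0.157 FPKM on average. Slc22a14, Slc22a16, Slc22a20, Slco6c1 and Slco6d1 were listed at 0 in all 10 libraries, several of them genes of the testis or the nose. The other 8 were Slc47a2, Slco1a4, Slco1c1, Slco4c1, Slco1a5, Slc22a27, Slco5a1 and Slco1b2. Slc47a2 encodes the second MATE carrier and lies next to Slc47a1 on chromosome 11, where it had 0.10 to 0.269 FPKM in G799R libraries and 0 to 0.244 FPKM in WT libraries. Slco4c1 and Slc22a27 are the proximal tubule members that were not tested, at 0.014 to 0.102 and 0 to 0.033 FPKM in G799R and at 0.087 to 0.211 and 0 to 0.063 FPKM in WT.

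Summed over the 21 proximal tubule members, FPKM was 164 ± 42.3 in G799R and 951 ± 218 in WT (SD, n = 5 each). The sum over the 10 endothelial or wide members was 190 ± 17.05 in G799R and 140 ± 14.0 in WT. Proximal tubule members made up 32.7% to 53.4% of all transporter FPKM in G799R libraries and 82.4% to 91.2% in WT libraries. The ranges of these shares do not overlap.

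**Figure D3:**
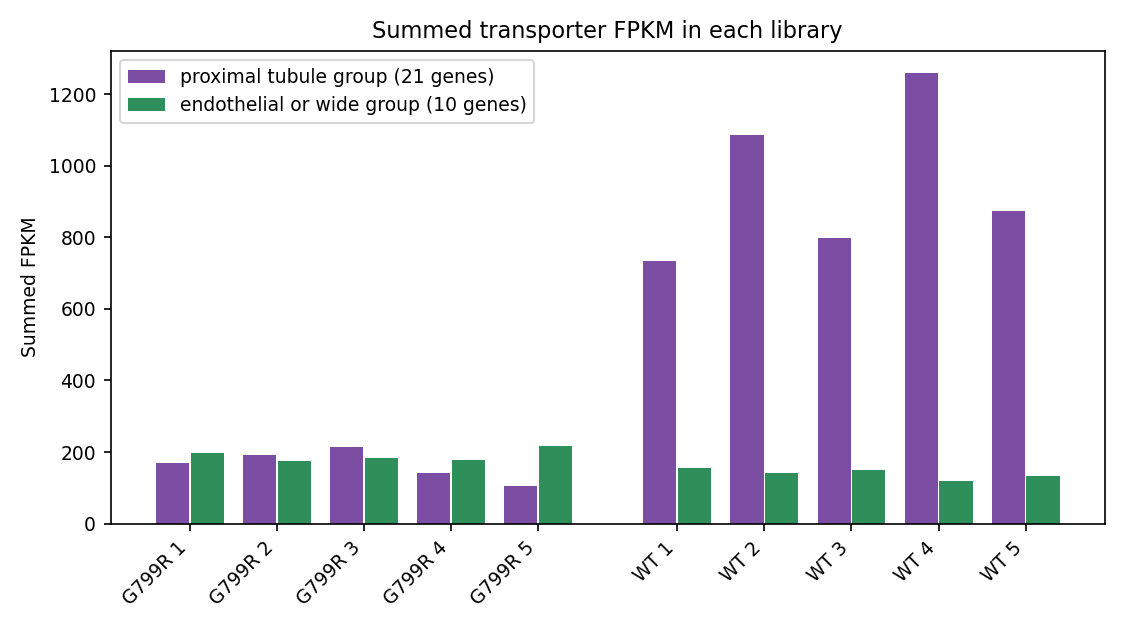
Summed FPKM of the 21 proximal tubule members (purple) and of the 10 endothelial or wide members (green) in each library, with the 5 G799R libraries left of the 5 WT libraries. The purple bars are 106 to 214 in G799R and 734 to 1259 in WT, while the green bars are 174 to 216 in G799R and 120 to 155 in WT.

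The same few libraries held the extremes of their genotype for many of these genes. G799R library 5 had the lowest value of its group for 15 of the 17 proximal tubule members of at least 1 FPKM, and library 3 had the highest for 10. WT library 1 was lowest for 13 of the 17 and WT library 4 highest for 13. The geometric mean of the 26 proximal tubule markers was 30.2, 29.8, 25.3, 22.8 and 14.4 FPKM in G799R libraries 1 to 5 and 135, 179, 141, 224 and 179 FPKM in WT libraries 1 to 5. By this mean, G799R library 5 and WT library 1 were the lowest of their groups for the markers too, and WT library 4 the highest. G799R library 3 was not the highest by this mean, being below libraries 1 and 2. By summed marker FPKM, however, G799R library 3 was the highest of its group, at 3040 against 2464 in library 1. WT library 3 was then the lowest of its group, at 9241 against 10357 in library 1. The order of these libraries thus depends on the summary chosen.

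Levels were next set relative to these 26 markers, by dividing each library by the geometric mean of the markers, to show how each transporter stood among other proximal tubule genes. Against that scale, 14 of the 19 tested proximal tubule members were not called, 4 were higher in G799R and 1 was lower, with a median log2 difference of 0.16. Among all tested genes 95.1% were called on this scale, 94.8% higher and 0.305% lower, and the median was 2.61. All 8 endothelial or wide members were higher, with a median of 1.77. Of the markers themselves, which set the scale, 3 were higher and 3 lower, with log2 differences from −0.83 to 1.66 over all 26. Each tested proximal tubule member lay within that range.

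The main secretory carriers were not called relative to the markers. Slc22a8 was at 53.8% ± 7.77 of the marker mean in G799R and 54.6% ± 9.41 in WT (SD, n = 5 each). For Slc47a1 the ratio was 56.0% ± 6.92 in G799R and 51.9% ± 4.88 in WT, and for Slc22a6 it was 76.9% ± 15.5 in G799R and 62.4% ± 10.5 in WT. The corresponding log2 differences were −0.02 ± 0.26 for Slc22a8, 0.10 ± 0.26 for Slc47a1 and 0.29 ± 0.26 for Slc22a6 (SE), with limma adjusted p-values of 0.95, 0.69 and 0.28. In limma the spread is pooled over genes, and on this scale the SE ran only from 0.20 (Slc22a29) to 0.30 (Slco1a1) over the tested members. As deposited it ran from 0.074 (Slc22a17) to 0.41 (Slco1a1). Errors and calls on the relative scale therefore do not reflect the spread of each gene alone. Differences of the size of these errors would not have been detected. Slc22a12 was at 127% ± 33.0 in G799R and 91.0% ± 9.68 in WT, a log2 difference of 0.44 ± 0.27 (SE, limma adjusted p = 0.11), which was called in 1 of 13 alternatives, without G799R library 1 (0.58, adjusted p = 0.0488).

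Slc22a5 departed from this pattern. Its level was 71.1%, 58.3%, 77.3%, 86.5% and 122% of the marker mean in G799R libraries 1 to 5, against 36.2%, 27.2%, 31.4%, 28.2% and 29.2% in WT libraries. Every G799R library was above every WT library. The relative log2 difference was 1.37 ± 0.26 (SE, limma adjusted p = 2.9e-06), and it was called in all 13 alternatives, at 1.22 to 1.48. Within the summed FPKM of the proximal tubule members, Slc22a5 held 12.3% ± 3.23 in G799R and 5.53% ± 0.85 in WT.

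Slco1a6 departed in the other direction. It stood at 18.8%, 16.1%, 21.01%, 13.1% and 13.2% of the marker mean in G799R libraries 1 to 5, against 24.1%, 29.2%, 29.2%, 27.4% and 28.6% in WT libraries, again with no overlap. The relative log2 difference was −0.72 ± 0.25 (SE, limma adjusted p = 0.0060), with −0.81 to −0.65 over the 13 alternatives and a call in each (adjusted p of 0.00145 to 0.0310). Its share of the summed proximal tubule FPKM was 2.45% ± 0.58 in G799R and 5.02% ± 0.53 in WT.

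Slco1a1, Slc22a7 and Slc22a13 were the other proximal tubule members called higher relative to the markers. Slco1a1 was at 26.3%, 33.7%, 72.3%, 31.8% and 48.3% of the marker mean in G799R libraries 1 to 5, against 31.3%, 21.5%, 11.5%, 32.8% and 8.36% in the WT libraries. These groups overlapped, and the relative log2 difference was 1.03 ± 0.30 (SE, limma adjusted p = 0.0010). That SE is below the 0.41 of the FPKM as deposited. It rests largely on the spread pooled over genes, so the p-value does not measure the scatter of Slco1a1 alone. Slc22a7 and Slc22a13 had relative log2 differences of 1.05 ± 0.26 and 0.74 ± 0.24 (limma adjusted p = 1.8e-04 and 0.0030), with overlapping ratios. All 3 were called in each of the 13 alternatives, which pool the spread over genes in the same way.

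**Figure D4:**
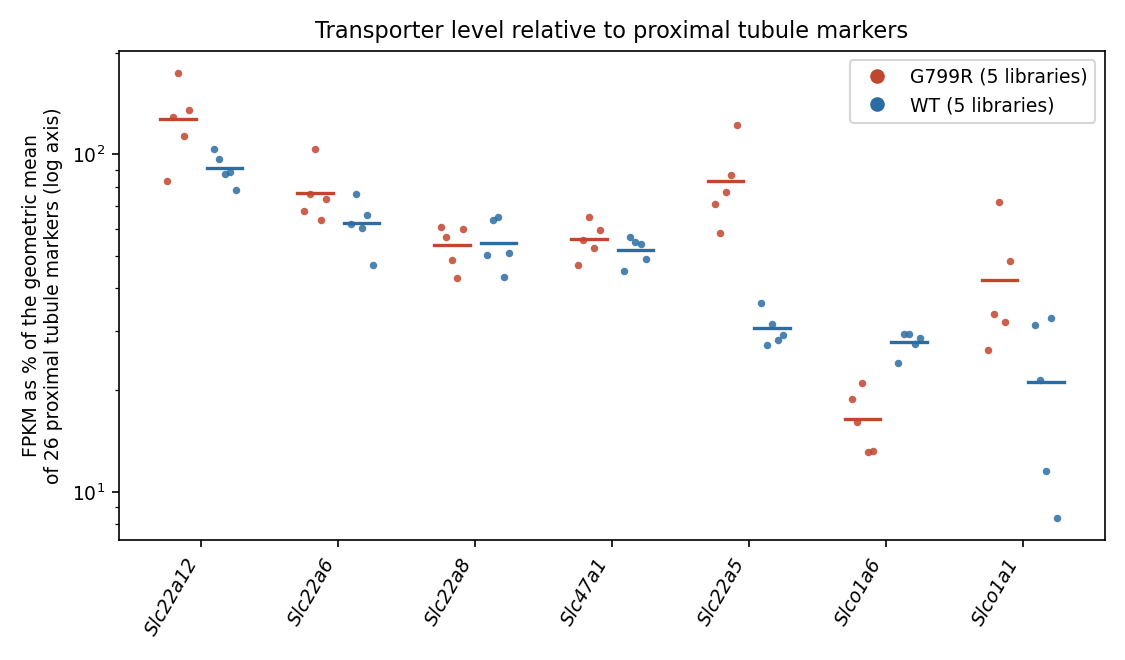
FPKM of 7 proximal tubule members as a percentage of the geometric mean of 26 proximal tubule markers (log axis), with G799R libraries (red) left of WT libraries (blue), 1 point per library and bars at the group means. Slc22a5 lies higher and Slco1a6 lower in each G799R library than in any WT library, and the groups overlap for the other 5 genes.

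**Figure D5:**
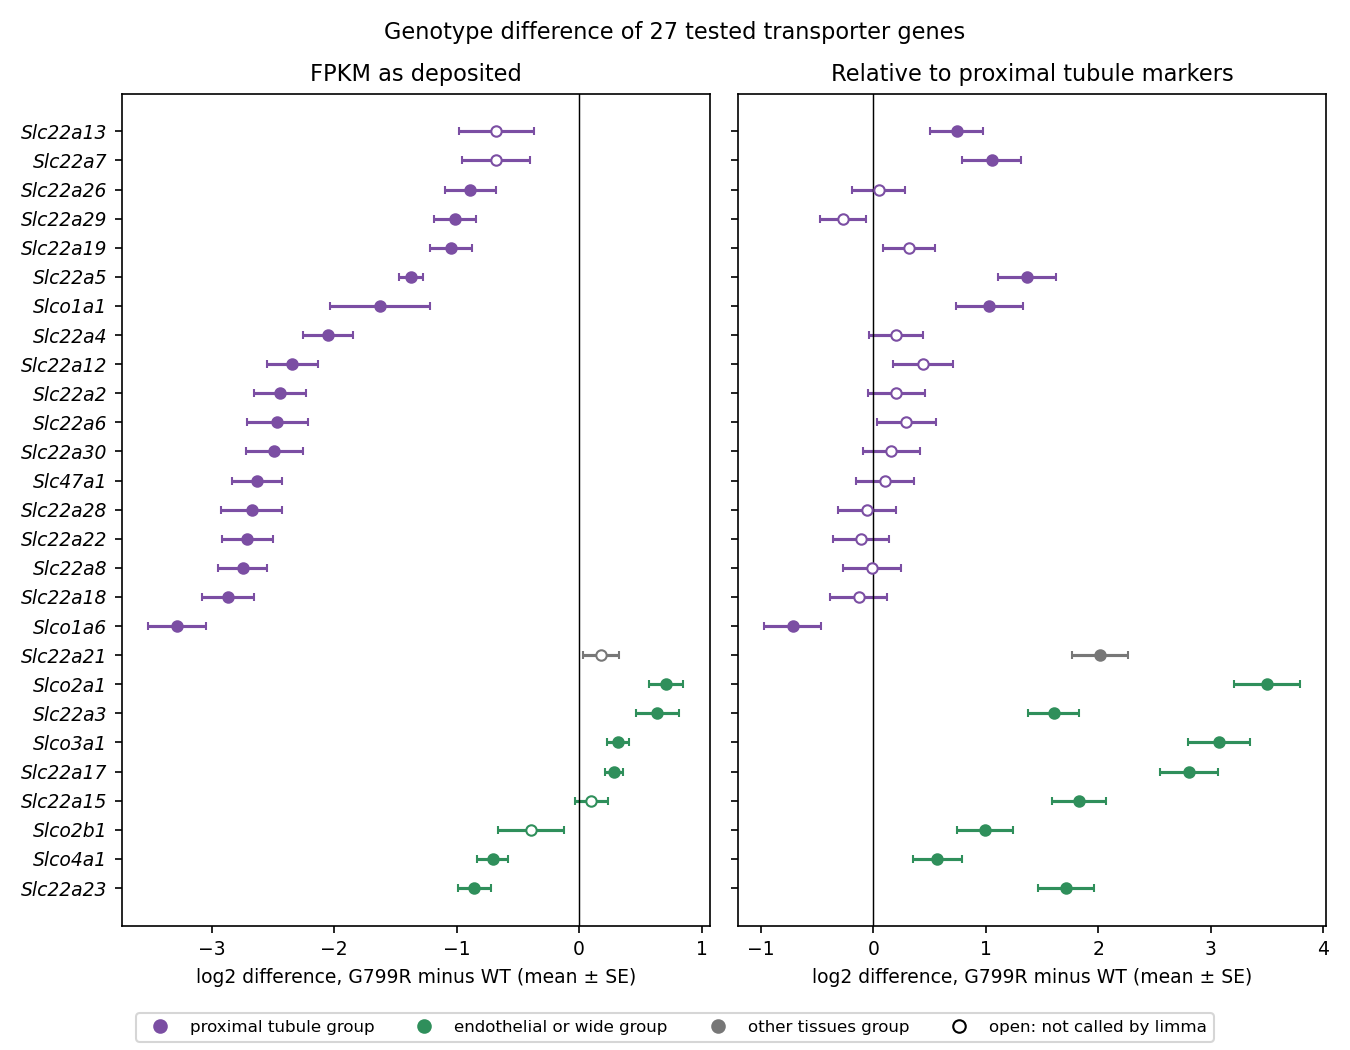
Log2 difference, G799R minus WT, of 27 tested members (points, with SE as bars) in FPKM as deposited (left) and relative to the proximal tubule markers (right), coloured by group, with open points for genes not called by limma. As deposited, all 18 proximal tubule members shown lie below 0, while relative to the markers 13 of them are not called, and the signs of most change.

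Genes that work with these transporters were described from a list of 39, of which 34 were tested, with 23 lower and 6 higher in G799R and a median log2 difference of −1.31, where 19.3% of all tested genes were lower and 40.5% higher. The dicarboxylate and sulfate carriers, some of which supply the exchange that drives anion uptake, all fell (4 of 4). Among them, Slc13a3 was at 13.9 ± 5.07 FPKM in G799R and 108 ± 26.5 FPKM in WT (SD, n = 5 each). The tested urate and phosphate-type anion carriers also fell (4 of 4), with Slc17a1 7.35-fold and Slc17a3 5.59-fold lower. Of 4 scaffold genes 3 fell and 1 rose. Pdzk1, whose product anchors URAT1 and other carriers at the brush border, was 7.29-fold lower, whereas Slc9a3r2 was 1.58-fold higher. With glomerular markers set equal Slc9a3r2 was at −0.017 on the log2 scale and not called (limma adjusted p = 0.89).

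Efflux pumps that use ATP were divided, with 5 of 9 lower and 3 higher, the share of higher genes being below that of all tested genes. Abcc2, the gene of an apical anion pump, was 6.51-fold lower, and Abcg2, a pump of urate and drugs, was at 36.0 ± 2.63 FPKM in G799R and 107 ± 15.4 FPKM in WT. The 2 mouse genes of P-glycoprotein differed in direction. Abcb1a rose 2.11-fold (log2 difference 0.99 ± 0.16 SE, limma adjusted p = 3.4e-04), and Abcb1b was 3.78-fold lower (−1.65 ± 0.24, limma adjusted p = 2.0e-04). Relative to the proximal tubule markers both were higher, as were 94.8% of all tested genes. There Abcb1a (3.46) lay above the median of all tested genes (2.61) and Abcb1b (0.78) below it. Of 5 tested peptide and nucleoside carriers 2 rose and 1 fell, near the shares of all tested genes (40.5% higher and 19.3% lower). The nucleoside carrier gene Slc29a1 rose 1.49-fold as deposited and was at −0.10, not called, with glomerular markers set equal (limma adjusted p = 0.42).

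Of 8 tested transcription factor genes of this program 6 fell and 0 rose as deposited, where 19.3% of all tested genes were lower and 40.5% higher. Hnf4a was at 9.47 ± 3.17 FPKM in G799R and 71.6 ± 17.7 FPKM in WT (SD, n = 5 each; 7.56-fold lower). Relative to the proximal tubule markers Hnf4a differed by −0.12 on the log2 scale and was not called (limma adjusted p = 0.64). On that relative scale 0 of the 4 dicarboxylate and sulfate carriers were called. Of the 9 efflux pumps 7 were higher, among them Abcg2 by 1.25 (limma adjusted p = 2.3e-05). Of all 34 tested partners 16 were higher and 1 lower on this scale, beside 94.8% and 0.305% of all tested genes. Nfe2l2, which encodes the stress factor NRF2, had 47.6 ± 6.43 FPKM in G799R and 46.3 ± 1.91 FPKM in WT and was not called as deposited (limma adjusted p = 0.78). With glomerular markers set equal it was at −0.64 and called lower (limma adjusted p = 0.00125), where the median of all genes was −0.42. Relative to the proximal tubule markers it was at 2.79 and called higher (limma adjusted p = 4.4e-14), beside a median of 2.61 for all genes.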

How the data were processed

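Kidney glomeruli were profiled by RNA-seq in 5 G799R and 5 WT libraries, grouped by their titles. The authors deposited 1 table of FPKM values. The submitters' processing notes list, with no role or order, StringTie 1.3.1, RSEM, HISAT2, Bowtie2 2.2.8 and fastp 0.18.0. The authors' genome build is not given in the sources used here. Columns were matched through each library's description. Of 22053 identifiers 21963 matched a symbol. Positions were taken, by Ensembl identifier, from GENCODE M21 (GRCm38), which need not be the build the authors used.

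The test was limma-trend (limma 3.58.1, R 4.3.3) on log2(FPKM + 1) over 13117 genes (mean of 0.5 FPKM or more), two-sided, and was tested on simulated data. The pseudocount understates changes of low genes. FPKM is relative, so a larger share of one kind of RNA lowers the values of the rest. Levels relative to markers came from dividing each library by the geometric mean of the 26 proximal tubule markers before the same test. Shared 50-base words were counted against all GENCODE M21 transcripts on both strands, since the strand setting of the authors' counting was not stated.

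The members, groups, lists and tests were chosen with earlier results of these data known. Members of at least 1 FPKM are described. The 6 proximal tubule and 4 other members with the highest mean have every library's value, except 1 member that counts in the totals and is not reported here by name, and called members under 1 FPKM are named. Values by library of Slc22a5, Slco1a6, Slco1a1, Slc22a7, Slc22a13 and Slc22a3 were added after they were seen, as were the 5 printed promoters. Partners may be named if called and at 5 FPKM or more on average, and Nfe2l2 was named after its values were seen. Alternatives were pseudocounts of 0.1 and 0.5, no filter or a filter of 2 FPKM, 4 other scalings, other limma settings, a replicate block, proximal tubule markers of at least 50 FPKM and leaving out libraries.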

Additional observations from a re-analysis of the deposited data

Results flagged for a closer look

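Within groups of 5 libraries, the gap between an extreme library and its nearest neighbour was compared with Dixon's critical share of the range, 0.71. Of 56 groups (28 members in 2 genotypes) 5 passed, and chance alone passes about 1 in 20. Slco1a1 stood at 18.3 FPKM in G799R library 3 and at 6.95 to 10.05 in the other G799R libraries. Slc22a23 stood at 5.69 FPKM in G799R library 5 and at 7.46 to 8.09 in the others. Slc22a26 stood at 0.545 FPKM in G799R library 5 and at 0.035 to 0.168 in the others. Slc22a7 was at 4.26 FPKM in WT library 2 and at 1.99 to 2.49 in the other WT libraries. Slco2b1 was at 3.96 FPKM in WT library 1 and at 0.686 to 1.51 in the others.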

How the results depend on the processing

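Of the 4 members called higher and 19 called lower, median-of-ratios scaling left 2 higher, both of the endothelial or wide group, and scaling by glomerular markers left 1 higher, with 6 of that group and 25 of all members lower. Scaling by proximal tubule markers gave 13 members higher and 1 lower, with 8 and 0 in the endothelial or wide group and 1 proximal tubule member lower. Pathway partners were then 16 higher and 1 lower, and 1 was higher under glomerular marker scaling. A filter of 2 FPKM left 1 endothelial or wide member lower, since fewer genes were tested.

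Medians and single genes turned sign only under scaling. With proximal tubule markers set equal, the median of the proximal tubule members became 0.16, and the log2 differences were 0.44 for Slc22a12, 0.29 for Slc22a6, 0.10 for Slc47a1, 1.37 for Slc22a5, 0.16 for Slc22a30, 0.20 for Slc22a2, 1.03 for Slco1a1, 1.71 for Slc22a23, 0.20 for Slc22a4, 1.05 for Slc22a7, 0.74 for Slc22a13, 0.32 for Slc22a19, 0.99 for Slco2b1, 0.57 for Slco4a1 and 0.047 for Slc22a26. With glomerular markers set equal, the median of the endothelial or wide members became −0.34, and the differences were −0.35 for Slco3a1, −0.34 for Slc22a17, −0.27 for Slc22a21 and −0.31 for Slc22a15. Slc22a15 was at −0.0062 under median-of-ratios scaling. These scalings move all genes together (median of all genes 0.02 for median-of-ratios, −0.42 for glomerular and 2.61 for proximal tubule markers, against 0.17 as deposited). The split of calls over all genes was 5308 higher and 2537 lower as deposited, 3057 and 3341 under median-of-ratios, 544 and 8291 under glomerular and 12437 and 40 under proximal tubule marker scaling.

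Leaving out each library in turn gave 4 to 4 members higher and 19 to 21 lower, 17 to 19 proximal tubule members lower, 4 to 4 endothelial or wide members higher and 2 to 2 lower, 6 to 7 partners higher and 23 to 24 lower, and, relative to the markers, 4 to 5 proximal tubule members higher and 1 to 1 lower. The replicate block gave 4 members higher and 19 lower and changed no call of a member. Whether same-numbered libraries share more than a number is not labelled. Their deviations correlated at −0.085 to 0.048, and 0 of 5 correlated best with their own number, which cannot exclude a shared batch. Over all genes the block gave 4937 higher and 2451 lower. Without G799R libraries 3 and 4, 3 members were higher and 20 lower. Depth is unknown, which limits members under 1 FPKM most.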
